A study of Mus musculus with 73 samples.

Results

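Germline and meiosis genes were examined in mouse embryos that had lost 1 of 4 chromatin regulators. The group was a given list of 36 genes of germ cell development and meiosis. They were chosen by name and not by a threshold on their level, but with earlier results of these data known. The share of members called is therefore no independent test against the share over all genes. All of the members with a row lie on autosomes. Of the 36, 35 had a row in the deposited table of 30546 genes; Mael was not analysed here. Of these 35, 25 had enough reads to be tested in 1 or more of the 8 comparisons of a knockout with wild type. In 1 or more of them, 22 members were higher. The share of all genes higher in 1 or more was not counted. The other 10 members of the table were never tested against wild type, and Meiob, with 10 reads over all 72 libraries, was the least read.

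Each library held the RNA of 1 tissue of 1 embryo at embryonic day 6.5, either the epiblast, which forms the body, or the extraembryonic ectoderm (ExE), which contributes to the placenta. The tissues were cut apart by hand, treated with enzymes and freed of visceral endoderm, and about 300 to 600 cells were lysed. The controls and all knockouts came from oocytes of BDF1 females injected with CAST sperm (BDF1xCAST), with 7 wild-type embryos giving both tissues. A second wild-type set of 4 embryos came from natural mating in the other direction (CASTxBDF1). The knockouts were made in zygotes with Cas9 mRNA and several guide RNAs per gene, so no line was bred and an embryo may hold cells that were edited differently. Dnmt1 had 3 epiblast and 3 ExE libraries, G9a-Glp 6 and 8, Rnf2 6 and 5, and Eed 9 and 10. Both sexes were present in every group.

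Germ cells use a set of genes that body cells keep silent, among them the proteins that pair and recombine chromosomes in meiosis and the PIWI-interacting RNA machinery that controls transposons. Many of these genes have promoters rich in CpG that gain DNA methylation as the embryo implants. Dnmt1 copies DNA methylation at replication. G9a and GLP, encoded by Ehmt2 and Ehmt1, methylate histone H3 at lysine 9. Rnf2 (RING1B) is the ubiquitin ligase of Polycomb repressive complex 1, including the form with PCGF6, MGA, MAX and E2F6 that acts at germline promoters through E-box and E2F sites. Eed is a core subunit of Polycomb repressive complex 2, which methylates histone H3 at lysine 27.

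Promoter sequences were found for 32 of the 36 members in RefSeq, build GRCm38.p6, as 38 windows from 250 bases before to 50 bases after a start. Their median CpG count was 19 (range 3 to 38), against 7 over all 32851 windows of the table. The E-box CACGTG occurred in 42.1% of the members' windows and in 7.15% of all. The E2F-type run TCCCGC, on either strand, occurred in 47.4% of the members' windows and in 20% of all. At least 1 of the runs was present in 25 of the 38 windows, 65.8%, against 25.1% of all. CACGTG reads the same on both strands, and each run was counted separately whether or not it overlapped the other. These matches describe letters and do not show binding.

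The 250 bases before the start are shown for the 5 members higher in 6 or more of the 8 knockout comparisons and for Tuba3b, which had the largest mean log2 fold change of the 4 members higher in 5. Sycp1 and Slc25a31, also higher in 5, were added after their values were seen because they were among the most raised genes without Rnf2. Capitals mark every CpG and each CACGTG and each TCCCGC on either strand.
Tex19.1, chr11:121145893-121146142, plus strand, 15 CpG: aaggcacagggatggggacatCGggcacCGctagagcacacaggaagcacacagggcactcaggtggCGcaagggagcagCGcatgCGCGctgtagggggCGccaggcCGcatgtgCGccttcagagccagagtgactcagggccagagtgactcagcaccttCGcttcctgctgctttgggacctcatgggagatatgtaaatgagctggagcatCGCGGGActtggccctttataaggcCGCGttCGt
Tuba3a, chr6:125286082-125286331, minus strand, 8 CpG: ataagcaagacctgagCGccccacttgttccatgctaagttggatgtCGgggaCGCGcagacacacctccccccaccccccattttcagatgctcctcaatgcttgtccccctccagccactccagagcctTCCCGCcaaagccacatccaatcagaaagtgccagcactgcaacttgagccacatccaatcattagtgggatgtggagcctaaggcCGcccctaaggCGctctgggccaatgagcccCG
Rpl10l, chr12:66284402-66284651, minus strand, 8 CpG: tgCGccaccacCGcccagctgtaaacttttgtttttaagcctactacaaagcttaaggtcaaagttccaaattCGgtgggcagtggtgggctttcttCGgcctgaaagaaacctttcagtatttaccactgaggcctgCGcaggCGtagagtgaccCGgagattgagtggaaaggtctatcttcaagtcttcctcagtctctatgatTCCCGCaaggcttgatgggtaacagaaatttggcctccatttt
Sohlh2, chr3:55181794-55182043, plus strand, 14 CpG: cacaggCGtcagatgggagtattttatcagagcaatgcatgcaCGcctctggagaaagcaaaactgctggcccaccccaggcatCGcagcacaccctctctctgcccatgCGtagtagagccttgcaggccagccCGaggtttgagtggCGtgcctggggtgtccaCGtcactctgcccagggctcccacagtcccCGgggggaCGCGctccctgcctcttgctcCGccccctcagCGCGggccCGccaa
Ddx4, chr13:112652311-112652560, minus strand, 31 CpG: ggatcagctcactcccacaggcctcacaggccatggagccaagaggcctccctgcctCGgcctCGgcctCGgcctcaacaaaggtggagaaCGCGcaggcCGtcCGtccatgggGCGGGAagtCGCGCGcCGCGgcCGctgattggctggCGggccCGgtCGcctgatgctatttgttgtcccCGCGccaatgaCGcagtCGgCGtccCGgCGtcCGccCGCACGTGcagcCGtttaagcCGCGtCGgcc
Tuba3b, chr6:145615713-145615962, plus strand, 14 CpG: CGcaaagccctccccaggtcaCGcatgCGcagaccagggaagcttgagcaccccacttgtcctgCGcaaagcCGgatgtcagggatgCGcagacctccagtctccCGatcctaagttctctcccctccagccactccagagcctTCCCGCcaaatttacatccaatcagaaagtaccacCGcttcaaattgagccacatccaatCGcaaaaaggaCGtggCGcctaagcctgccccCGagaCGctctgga
Sycp1, chr3:102936101-102936350, minus strand, 17 CpG: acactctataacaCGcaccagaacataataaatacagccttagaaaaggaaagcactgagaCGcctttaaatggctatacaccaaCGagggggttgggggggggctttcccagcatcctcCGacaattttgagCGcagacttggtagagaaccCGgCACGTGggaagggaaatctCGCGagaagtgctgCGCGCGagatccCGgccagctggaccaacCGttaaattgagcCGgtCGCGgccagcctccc
Slc25a31, chr3:40708621-40708870, plus strand, 18 CpG: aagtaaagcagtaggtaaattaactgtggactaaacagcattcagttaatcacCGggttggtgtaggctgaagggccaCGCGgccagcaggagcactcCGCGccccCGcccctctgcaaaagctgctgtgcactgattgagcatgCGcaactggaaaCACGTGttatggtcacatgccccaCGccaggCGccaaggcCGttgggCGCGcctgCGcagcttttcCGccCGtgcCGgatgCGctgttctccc
Ddx4 carried both runs in this stretch, Sycp1 and Slc25a31 carried CACGTG, and Tex19.1, Tuba3a, Tuba3b and Rpl10l carried TCCCGC on either strand. Sohlh2 carried neither within these bases. Syce1 and Tex101, also strongly raised without Rnf2, were not added, and neither run occurred in their 250 bases. The printed stretches therefore cannot show whether the runs go with a rise without Rnf2. For Ddx4 the start in the RefSeq promoter table lies inside the gene span of the deposited table, so its stretch is not upstream of the outermost start. The genes themselves lie at chr11:121146143-121148314 for Tex19.1, chr6:125278274-125286042 for Tuba3a, chr6:145615963-145621477 for Tuba3b and chr12:66283379-66284401 for Rpl10l. Sohlh2 spans chr3:55182044-55209957, Ddx4 chr13:112598333-112652633, Sycp1 chr3:102818499-102936100 and Slc25a31 chr3:40708871-40726094 (mm10, from the deposited table). Further leading genes are Asz1 at chr6:18050964-18109061 and Rpl39l at chr16:10170197-10174911.

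Levels are given as CPM, the deposited reads of a gene scaled to the same total in every library. Reads that could be assigned to an allele were counted over both alleles of each gene. A gene with few strain differences can have few such reads, so levels are compared between libraries of the same gene and not between genes. Library totals ran from 1141414 to 3976031 reads outside the Rnf2 groups, and from 1847681 to 17653087 in them. Each difference was tested by the quasi-likelihood method of edgeR over all genes tested, and "higher" or "lower" means an adjusted p under 0.05. A gene with almost no reads in wild type passed the filter on low counts only where the knockout read it. Dazl was tested in 1 comparison with wild type and higher in 1, Sycp2 in 3 and 3, and Hormad1 in 2 and 2. The share of tested members called higher and their median log2 fold change are raised by this. The p-values measure the spread between embryos, and the value after ± in a log2 fold change is its standard error. In a whole tissue, a gene read strongly in few cells and one read weakly in all cells cannot be told apart. All 4 knockouts were compared with the same 7 wild-type embryos, so the comparisons are not independent of each other. Overlap between groups was examined for members only, and counted among those past the threshold. Those counts have no share over all genes beside them, and the call itself favours groups without overlap. Embryo 8 of the wild-type epiblasts stood apart: it had 1311863 reads against 2372314 to 3028267 in the other 6, and Eed at 38.1 CPM against 160.5 to 205 CPM. Without it the members higher in the epiblast numbered 14 in Dnmt1 (13 with all), 8 in G9a-Glp (7), 17 in Rnf2 (17) and 9 in Eed (9). Of 82 fold values of members called higher, 9 moved by over 1.5 times when 1 library was left out, a check chosen after the data were seen. Where this left 3 or fewer wild-type reads, the fold was not computed and was counted as not moved.

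The targeted genes were checked first. Dnmt1 was lower in the Dnmt1 epiblast (log2 -2.27, edgeR adjusted p = 0.000573), but in the Dnmt1 ExE replicate 1 was within the wild-type range (47.9 CPM) and the group was not past the threshold (log2 -0.95, edgeR adjusted p = 0.136). Eed was lower in both Eed tissues (log2 -4.24, edgeR adjusted p = 3.22e-07 in epiblast, log2 -4.79, edgeR adjusted p = 1.12e-11 in ExE). Ehmt2 and Ehmt1 were lower in the G9a-Glp ExE (log2 -2.04, edgeR adjusted p = 0.000651, and log2 -1.04, edgeR adjusted p = 0.0198), while Ehmt1 in the epiblast was not past the threshold (log2 -0.62, edgeR adjusted p = 0.267). Ehmt2 in that epiblast had 1.13 to 5.50 CPM (median 2.98) against 0.396 to 6.27 CPM (median 2.52) in wild type, so the groups overlapped. Rnf2 was lower in its epiblast (log2 -0.80, edgeR adjusted p = 0.00768) and not past the threshold in its ExE (log2 -0.43, edgeR adjusted p = 0.319). In the Rnf2 ExE the targeted mRNA had 29.5, 22.4, 39.5, 62.7 and 21.9 CPM against 21.4 to 65.9 CPM (median 51.7) in wild type, and all 5 libraries were within the wild-type range. Groups are therefore named by their labels. A frameshift need not lower a transcript, so the level of the mRNA does not measure the loss of protein. Without the libraries in which the targeted mRNA was highest, the members called higher numbered 7 in the G9a-Glp epiblast (without embryos 2 and 7; 7 with all), 10 in the Rnf2 ExE (without embryos 2, 5 and 6; 12 with all) and 5 in the Dnmt1 ExE (without replicate 1; 6 with all).

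Wild-type tissues did not start from the same level. Between the tissues of the 7 wild-type embryos, 15 members were tested and 13 differed, beside 56.7% of all genes. This test did not pair the 2 tissues of an embryo. Tex19.1, a transposon control gene known from both germ cells and the placenta, had the largest difference toward ExE, 313 ± 120.5 CPM (SD, n = 7) against 3.45 ± 2.01 CPM in the epiblast (log2 6.58 ± 0.36, edgeR adjusted p = 9.35e-11). Sycp1, the transverse filament of the synaptonemal complex, had 14.5 ± 6.36 CPM in ExE against 0.934 ± 0.896 CPM (log2 4.00). Stk31, Sohlh2, Tuba3a, Rpl10l, Syce1 and Mcmdc2 were also higher in ExE, by log2 2.79, 2.66, 2.32, 2.15, 1.75 and 1.65. In the other direction, Hormad2, which marks unsynapsed chromosome axes, had 68.6 ± 16.7 CPM in the epiblast against 2.12 ± 2.09 CPM in ExE (log2 -4.94 ± 0.43, edgeR adjusted p = 2.19e-08). Sycp3 (log2 -4.72), Rpl39l (-4.12), Dmc1 (-2.24) and Syce2 (-0.88) were higher in the epiblast too. So not every member was silent at this stage, and a fold below has to be read with the wild-type level beside it. The reads of Sycp3, Syce2, Zcwpw1, Hormad1, Brdt and Mcmdc2 are uncertain in this and every later comparison, since other loci overlap them (Chpt1, Gcdh, Pilra, Gm40097, Gm17202 and Snhg6) and the strand was not given in the sources used here. Over all libraries Pilra had 3219 reads and Zcwpw1 2266.

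**Figure D1:**
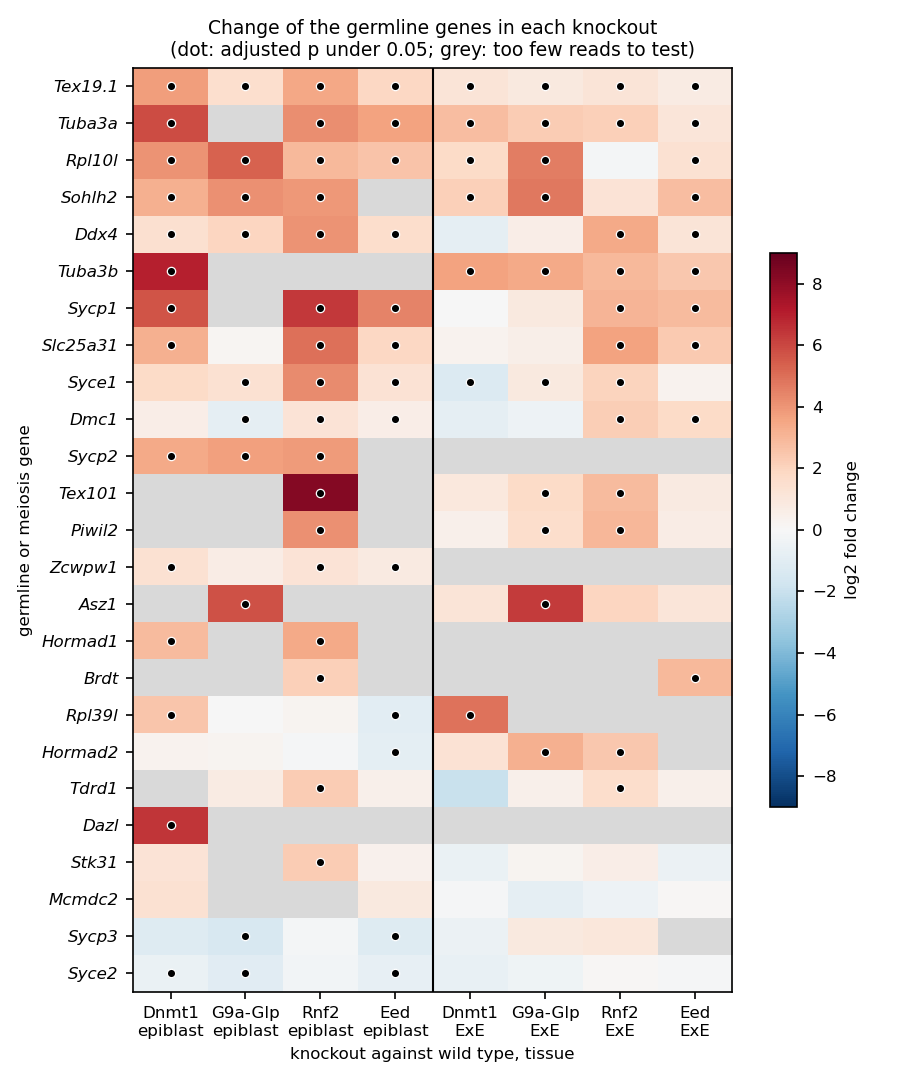
Log2 fold change of each tested member (rows) against wild type in the 8 knockout comparisons (columns), on a colour scale from blue (lower) to red (higher). Tex19.1 was called higher in all 8 columns, and Tuba3a and Rpl10l in 7.

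Without Dnmt1, the epiblast showed 13 of 20 tested members higher and 1 lower, beside 6.93% higher and 7.03% lower over the 10248 genes tested. The median log2 fold change of the tested members was 2.65, against 0.00 for all genes tested. In each of the 13, all 3 knockout libraries were above all 7 wild-type libraries. The raised members included chromosome axis genes, RNA-binding regulators and testis copies of housekeeping genes. Sycp1, the synaptonemal complex gene, had 81.1, 56.9 and 34.9 CPM in the knockout and 0 to 2.53 CPM (median 0.404) in wild type, a 61.7-fold difference of the means (log2 fold change 5.70 ± 0.50, edgeR adjusted p = 3.79e-05). Tuba3b, a testis alpha-tubulin, measured 39.4, 33.3 and 58.4 CPM, compared with 0 to 0.762 CPM (median 0.404) in the controls, and was 152-fold higher (log2 fold change 6.98 ± 0.50, edgeR adjusted p = 7.4e-06). No wild-type library had more than 1 read of Tuba3b, so the size of this fold is uncertain. Tuba3a, its near-identical relative, was 69.5-fold higher, at 160.4, 99.9 and 179.8 CPM beside 0 to 6.06 CPM (median 1.68) in wild type (log2 fold change 5.88 ± 0.59, edgeR adjusted p = 0.000131). Reads of the tubulin pair can be misassigned between the copies, so their separate values are uncertain. Rpl10l is the autosomal testis copy of an X-linked ribosomal protein gene. Rpl10l gave 175, 170.0 and 152 CPM against 1.45 to 19.5 CPM (median 6.32) in wild type, 19.8-fold higher on the means (log2 fold change 4.03 ± 0.48, edgeR adjusted p = 0.000290). Tex19.1 had 44.1, 40.3 and 75.2 CPM in the knockout and 1.09 to 6.86 CPM (median 3.77) in wild type, a 15.4-fold difference of the means (log2 fold change 3.78 ± 0.39, edgeR adjusted p = 0.000156). Dazl, an RNA-binding protein that licenses germ cell fate, had 14.1, 7.01 and 12.7 CPM (log2 fold change 6.42 ± 0.73, edgeR adjusted p = 0.000207). In wild type Dazl had 1 read in 1 of 7 libraries, so no fold is given.

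The other raised members of the Dnmt1 epiblast were smaller in fold. Sycp2, an axis protein, was 13.0-fold higher, Slc25a31, the mitochondrial ADP/ATP carrier of male germ cells, 10.4-fold, and Sohlh2, a transcription factor of early germ cell differentiation, 9.53-fold. Hormad1, an axis protein, was 8.45-fold higher. Rpl39l, another testis ribosomal gene, rose to 121 ± 26.3 CPM (SD, n = 3) from 18.7 ± 9.09 CPM (n = 7), 6.48-fold. Zcwpw1, a reader of histone methylation in meiosis, and Ddx4 (VASA), the germ granule helicase, were 3.05-fold and 3.02-fold higher. Syce2, a central element protein, was at 74.9% of wild type, with overlapping groups (adjusted p = 0.0409 by edgeR). Sycp3, Syce1, Stk31, Hormad2, Dmc1 and Mcmdc2 were tested without passing, at log2 fold changes from -1.18 to 1.74. Without wild-type embryo 8, Sohlh2 was 15.9-fold higher. With 3 embryos the weaker calls were sensitive to 1 of them. Without replicate 1, Sycp2, Sohlh2, Zcwpw1 and Ddx4 had edgeR adjusted p = 0.0518, 0.0541, 0.0696 and 0.0584, and without replicate 3 Zcwpw1 and Ddx4 had 0.191 and 0.110. ExE markers summed to 97.3 to 254 CPM in these epiblasts against 35.0 to 234 in wild type, neither of the 2 tested markers passed, and their part in the result was not tested. Sycp1 stood above the wild-type ExE level itself (57.7 ± 23.1 CPM against 14.5 ± 6.36 CPM).

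In the ExE without Dnmt1, 6 of 20 tested members were higher and 1 lower, beside 8.55% higher and 9.98% lower over 9749 genes. The member median was 0.39. They were testis copies of housekeeping genes, Sohlh2 and Tex19.1. Rpl39l measured 40.8, 35.1 and 34.4 CPM, compared with 0 to 3.58 CPM (median 0.333) in the controls, and was 35.8-fold higher (log2 fold change 4.88 ± 0.63, edgeR adjusted p = 0.000369). Tuba3b was 14.5-fold higher, at 25.0, 25.1 and 24.1 CPM beside 1.00 to 3.35 CPM (median 1.43) in wild type (log2 fold change 3.59 ± 0.35, edgeR adjusted p = 5.54e-05). Tuba3a gave 115, 76.0 and 58.1 CPM against 7.00 to 15.6 CPM (median 10.3) in wild type, 8.04-fold higher on the means (log2 fold change 2.77 ± 0.26, edgeR adjusted p = 4.84e-05). Every Dnmt1 library was above every wild-type library for these genes. The highest wild-type value of Rpl39l was that of embryo 2, and without it Rpl39l was 61.1-fold higher. Rpl10l had 138, 171 and 125 CPM in the knockout and 23.8 to 48.1 CPM (median 38.5) in wild type, a 3.84-fold difference of the means (log2 fold change 1.69 ± 0.21, edgeR adjusted p = 0.000357). Tex19.1 measured 834, 789 and 892 CPM, compared with 109 to 463 CPM (median 343) in the controls, and was 2.68-fold higher (log2 fold change 1.19 ± 0.27, edgeR adjusted p = 0.00867). Sohlh2 was 5.09-fold higher, at 146, 43.3 and 36.6 CPM beside 3.00 to 26.1 CPM (median 10.4) in wild type (log2 fold change 2.12 ± 0.50, edgeR adjusted p = 0.00946). Sohlh2 rested on 1 embryo: without replicate 1 it was 2.70-fold higher and its log2 fold change was 1.17 (edgeR adjusted p = 0.167). Without replicate 3, Tex19.1 had adjusted p = 0.0538 by edgeR. Syce1, a central element protein, was at 51.2% of wild type (log2 -1.21, edgeR adjusted p = 0.0128), and without replicate 1 it had adjusted p = 0.0730 by edgeR. Sycp1, raised in the epiblast, had 17.0 ± 7.24 CPM in the ExE against 14.5 ± 6.36 CPM in wild type, which did not pass. In wild type Rpl39l was higher in the epiblast, and in the Dnmt1 ExE it stood above the wild-type epiblast mean (36.8 ± 3.49 CPM against 18.7 ± 9.09 CPM). Epiblast markers summed to 971 to 1322 CPM in these libraries against 749 to 1262 in wild-type ExE.

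Without G9a and GLP, the epiblast showed 7 of 15 tested members higher and 3 lower, beside 19.5% higher and 14.9% lower over 9562 genes. The median log2 fold change of tested members was 0.76. The raised set was led by the germ granule gene Asz1 and by Rpl10l. Asz1, a mitochondrial surface protein needed for PIWI-interacting RNAs, gave 17.1 to 28.2 CPM (median 23.7) against 0 to 1.09 CPM (median 0.330) in wild type, 71.6-fold higher on the means (log2 fold change 5.76 ± 0.42, edgeR adjusted p = 6.39e-08). Rpl10l had 199 to 661 CPM (median 276) in the knockout and 1.45 to 19.5 CPM (median 6.32) in wild type, a 42.5-fold difference of the means (log2 fold change 5.28 ± 0.47, edgeR adjusted p = 6.51e-07). Sohlh2 measured 21.3 to 62.9 CPM (median 40.1), compared with 0 to 9.15 CPM (median 1.98) in the controls, and was 16.2-fold higher (log2 fold change 4.12 ± 0.52, edgeR adjusted p = 1.79e-05). For these genes the lowest knockout library was above the highest wild-type library. Without wild-type embryo 8, Sohlh2 was 27.1-fold higher. Sycp2 was 14.4-fold higher, at 5.80 to 15.7 CPM (median 9.68) beside 0 to 1.98 CPM (median 0.422) in wild type (log2 fold change 3.68 ± 0.48, edgeR adjusted p = 2e-05). Ddx4 gave 21.8 to 44.0 CPM (median 32.1) against 3.79 to 16.8 CPM (median 8.31) in wild type, 3.88-fold higher on the means (log2 fold change 1.92 ± 0.26, edgeR adjusted p = 3.03e-05). Tex19.1 had 4.28 to 13.6 CPM (median 10.4) in the knockout and 1.09 to 6.86 CPM (median 3.77) in wild type, a 2.85-fold difference of the means (log2 fold change 1.48 ± 0.40, edgeR adjusted p = 0.00759). The groups overlapped for Tex19.1 only, among the 7. Syce1 was 2.79-fold higher. Sycp3, an axis protein, was at 39.4% of wild type and Syce2 at 52.7%, both without overlap between groups. Dmc1, the meiotic strand-exchange recombinase, was at 61.5%. ExE markers summed to 33.3 to 133 CPM against 35.0 to 234 in wild type, and neither of the 2 tested markers passed. Visceral endoderm markers summed to a median of 129.8 CPM (28.2 to 390.1) here against 43.2 (19.8 to 701) in wild type, and their part was not tested.

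The ExE without G9a and GLP showed the highest summed level of the 10 BDF1xCAST groups, 2577 ± 320.2 CPM over all members (SD, n = 8) against 608 ± 109 in wild type. Of 19 tested members 10 were higher and none lower, beside 8.71% higher and 6.35% lower over 9228 genes. The median over tested members was 0.88. At an unadjusted p under 0.05 edgeR had 2 lower, and DESeq2 called 0 lower. Asz1 measured 180.4 to 308 CPM (median 225), compared with 0.333 to 5.24 CPM (median 2.63) in the controls, and was 81.3-fold higher (log2 fold change 6.28 ± 0.31, edgeR adjusted p = 1.25e-11). Sohlh2 was 28.6-fold higher, at 229 to 626 CPM (median 429.8) beside 3.00 to 26.1 CPM (median 10.4) in wild type (log2 fold change 4.78 ± 0.35, edgeR adjusted p = 1.21e-08). Rpl10l gave 730.0 to 1086 CPM (median 1016) against 23.8 to 48.1 CPM (median 38.5) in wild type, 25.8-fold higher on the means (log2 fold change 4.62 ± 0.17, edgeR adjusted p = 3.38e-14). For each of these genes the lowest G9a-Glp library was above the highest wild-type one. Tuba3b had 5.16 to 36.7 CPM (median 19.7) in the knockout and 1.00 to 3.35 CPM (median 1.43) in wild type, an 11.5-fold difference of the means (log2 fold change 3.42 ± 0.39, edgeR adjusted p = 2.62e-06). Tuba3a measured 33.2 to 96.9 CPM (median 48.5), compared with 7.00 to 15.6 CPM (median 10.3) in the controls, and was 5.17-fold higher (log2 fold change 2.31 ± 0.23, edgeR adjusted p = 4.51e-07). Hormad2 was 9.76-fold higher, at 4.12 to 34.3 CPM (median 20.9) beside 0 to 6.00 CPM (median 1.96) in wild type (log2 fold change 3.17 ± 0.53, edgeR adjusted p = 0.000347). Hormad2, Tex101, Piwil2 and Tex19.1 overlapped between groups, and the other 6 did not. Tex101, a surface glycoprotein of germ cells, was 3.45-fold higher, and Piwil2, a PIWI protein, 3.29-fold. Syce1 was 1.92-fold and Tex19.1 1.89-fold higher. Sycp1, Slc25a31, Ddx4, Dmc1, Stk31, Tdrd1, Mcmdc2, Sycp3 and Syce2 were tested without passing, at log2 fold changes from -0.79 to 0.88. Visceral endoderm markers summed to 21.8 to 142 CPM here against 12.5 to 28.6 in wild type; their part was not tested.

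**Figure D2:**
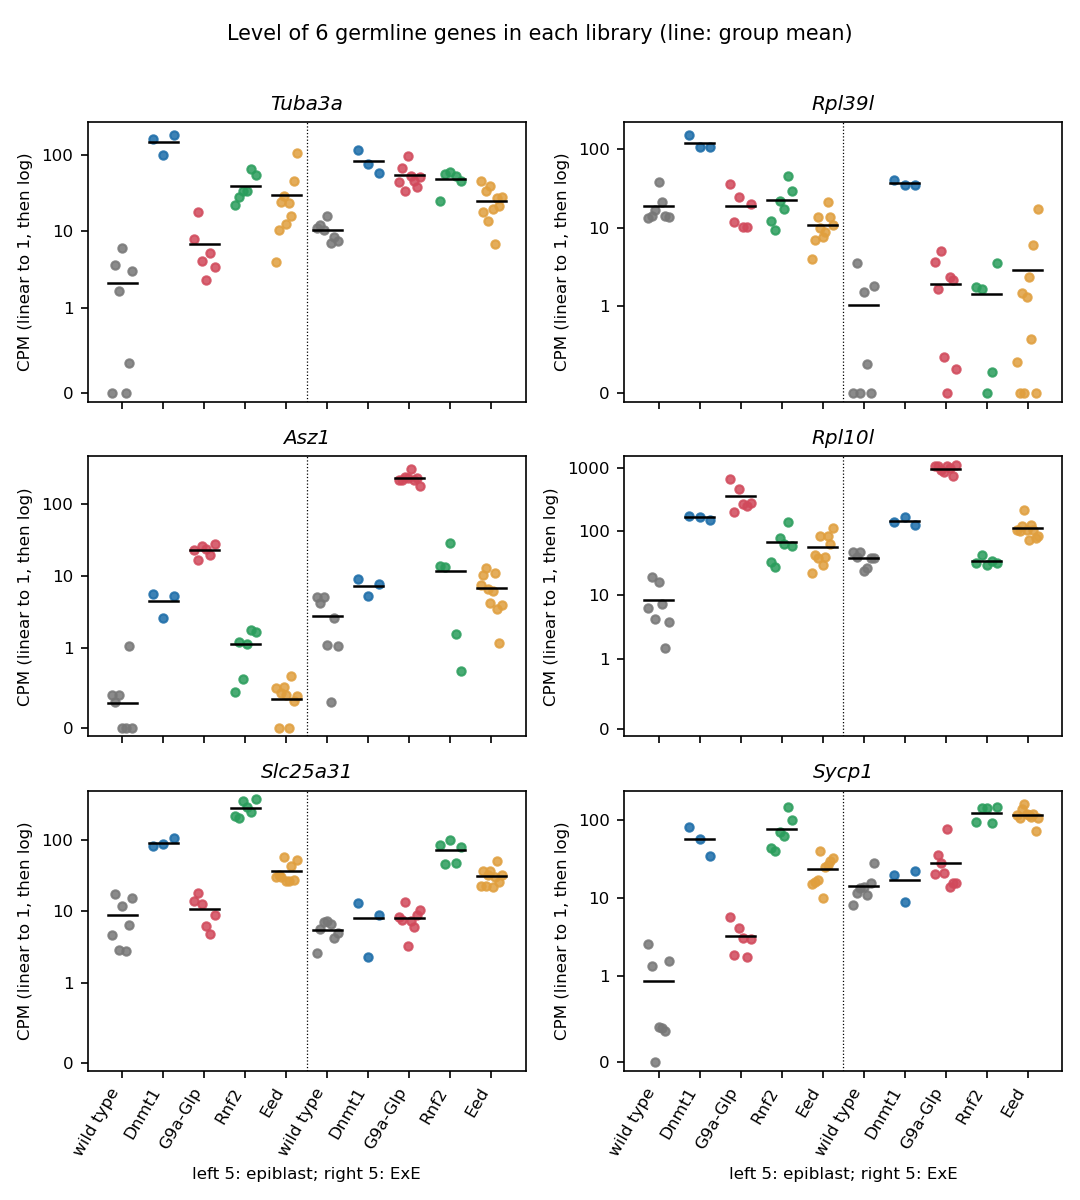
CPM of Tuba3a, Rpl39l, Asz1, Rpl10l, Slc25a31 and Sycp1 in every library of the BDF1xCAST groups; each point is 1 library, bars mark group means, and the axis is linear below 1 and logarithmic above. Asz1 was at 180.4 to 308 CPM in the G9a-Glp ExE and at or below 5.24 CPM in wild-type ExE, whereas Sycp1 had its highest group mean in the Rnf2 ExE and Slc25a31 in the Rnf2 epiblast.

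At the depth given, the epiblast without Rnf2 had the most members called. Of 21 tested, 17 were higher and none lower, beside 18.2% higher and 12.7% lower over 10134 genes. By edgeR 0 members were lower at an unadjusted p under 0.05 as well, and DESeq2 called 0 lower. The member median was 3.38. In 14 of the 17 the groups did not overlap. Sycp1 gave 40.8 to 148 CPM (median 67.4) against 0 to 2.53 CPM (median 0.404) in wild type, 83.6-fold higher on the means (log2 fold change 6.39 ± 0.48, edgeR adjusted p = 2.98e-07). Syce1 had 80.7 to 127 CPM (median 113) in the knockout and 0 to 9.69 CPM (median 5.54) in wild type, a 20.7-fold difference of the means (log2 fold change 4.27 ± 0.35, edgeR adjusted p = 6.19e-07). For both genes the lowest Rnf2 library was above the highest wild-type one. Slc25a31 measured 204 to 377 CPM (median 266), compared with 2.77 to 17.5 CPM (median 6.53) in the controls, and was 31.6-fold higher (log2 fold change 4.99 ± 0.38, edgeR adjusted p = 2.98e-07). Piwil2 was 13.6-fold higher, at 7.02 to 21.6 CPM (median 10.2) beside 0 to 3.81 CPM (median 0.363) in wild type (log2 fold change 4.11 ± 0.65, edgeR adjusted p = 0.000243). Tuba3a gave 22.1 to 64.1 CPM (median 33.6) against 0 to 6.06 CPM (median 1.68) in wild type, 18.7-fold higher on the means (log2 fold change 4.21 ± 0.55, edgeR adjusted p = 4.58e-05). Tex101 had 17.5 to 86.4 CPM (median 34.8) (log2 fold change 8.29 ± 0.71, edgeR adjusted p = 9.65e-07). In wild type Tex101 had 2 reads over 7 libraries, so no fold is given. Ddx4 rose to 143 ± 45.0 CPM (SD, n = 6), 16.4-fold.

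The other 10 raised members of the Rnf2 epiblast follow by role. Of the axis genes, Sycp2 was 15.2-fold and Hormad1 10.6-fold higher. Sohlh2 was 13.3-fold, Tex19.1 10.7-fold and Rpl10l 8.00-fold higher. Among germ granule genes, Stk31 was 5.03-fold and the tudor protein gene Tdrd1 4.68-fold higher. Brdt, a testis bromodomain protein, was 3.74-fold, Zcwpw1 2.44-fold and Dmc1 2.43-fold higher. Sohlh2, Tdrd1 and Brdt overlapped between groups, in each case through wild-type embryo 8. Without that embryo none of the 3 overlapped, and the folds were 22.1 for Sohlh2, 9.38 for Brdt, 6.13 for Tdrd1 and 33.7 for Piwil2. Without Rnf2 embryo 6, Sohlh2 was 8.40-fold higher. Sycp3, Syce2, Rpl39l and Hormad2 did not pass, at log2 fold changes from -0.23 to 0.22. These libraries held more reads than the wild-type ones. When every library was thinned to the lowest total, 13 members were called. The ranking of this group as the one with the most members called was not made at a depth equal across the knockouts. ExE markers summed to 33.4 to 195 CPM here against 35.0 to 234 in wild type. Of 4 tested, Bmp4 (log2 3.87, edgeR adjusted p = 0.000167) and Ascl2 (log2 1.52, edgeR adjusted p = 0.0283) were higher and Eomes (log2 -1.65, edgeR adjusted p = 0.00747) was lower. Their part in the result was not tested, and Tex19.1, Sycp1, Syce1, Sohlh2, Tuba3a, Rpl10l and Stk31 were higher in ExE than in the epiblast of wild type. By DESeq2 so were Tex101 and Piwil2, while Dmc1 and Zcwpw1 were higher in the wild-type epiblast. Germ cell specification genes, taken as a list, summed to 1269 to 3478 CPM here against 276 to 512 in wild type. Of 7 tested, 3 were higher, Dppa3 (log2 4.19, edgeR adjusted p = 1.23e-05), Ifitm3 (log2 3.28, edgeR adjusted p = 2.98e-07) and Lin28a (log2 0.81, edgeR adjusted p = 0.0319), and their part in the members' result was not tested. Dppa3 and Ifitm3 are known from primordial germ cells and Lin28a from the epiblast and germ cells.

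The ExE without Rnf2 had 12 of 19 tested members higher and none lower, beside 12.2% higher and 9.98% lower over 9506 genes. At an unadjusted p under 0.05 edgeR also had 0 lower, and DESeq2 called 0 lower. The median log2 fold change of tested members was 2.02 against -0.03 for all genes. In all 12, the 5 knockout libraries (embryos 2, 4, 5, 6 and 7) were above the 7 wild-type ones. Slc25a31 had 85.6, 46.6, 98.0, 48.2 and 78.6 CPM in the knockout and 2.62 to 7.45 CPM (median 5.74) in wild type, a 12.8-fold difference of the means (log2 fold change 3.62 ± 0.26, edgeR adjusted p = 5.34e-07). Ddx4 measured 76.8, 28.9, 109, 62.1 and 81.7 CPM, compared with 0.715 to 10.8 CPM (median 7.21) in the controls, and was 11.2-fold higher (log2 fold change 3.43 ± 0.37, edgeR adjusted p = 1.3e-05). Sycp1 was 8.65-fold higher, at 95.5, 144, 144, 93.3 and 148 CPM beside 8.19 to 27.9 CPM (median 13.4) in wild type (log2 fold change 3.03 ± 0.27, edgeR adjusted p = 2.96e-06). All 5 embryos took part in each of these. Piwil2 gave 27.2, 20.6, 28.1, 31.8 and 25.9 CPM against 0.667 to 5.72 CPM (median 3.27) in wild type, 8.50-fold higher on the means (log2 fold change 3.00 ± 0.34, edgeR adjusted p = 2.01e-05). Tex101 had 34.4, 19.3, 57.4, 39.8 and 45.2 CPM in the knockout and 1.67 to 11.9 CPM (median 3.62) in wild type, a 7.69-fold difference of the means (log2 fold change 2.88 ± 0.36, edgeR adjusted p = 5.18e-05). Tuba3b measured 4.79, 12.2, 42.2, 5.98 and 6.43 CPM, compared with 1.00 to 3.35 CPM (median 1.43) in the controls, and was 8.41-fold higher (log2 fold change 2.90 ± 0.56, edgeR adjusted p = 0.00195). The last value was led by embryo 5, without which Tuba3b was 4.32-fold higher. Hormad2 was 5.56-fold, Dmc1 4.89-fold and Syce1 4.23-fold higher. Tuba3a, Tdrd1 and Tex19.1 were 4.62-fold, 3.22-fold and 2.34-fold higher. Rpl10l had 33.8 ± 5.02 CPM (SD, n = 5) against 37.6 ± 9.39 CPM in wild type and did not pass. Without embryos 2, 5 and 6, Hormad2 and Tex19.1 had edgeR adjusted p = 0.0519 and 0.0726.

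Without Eed, the epiblast showed 9 of 16 tested members higher and 4 lower, beside 18.0% higher and 18.8% lower over 9820 genes. The median over tested members was 0.81 against -0.02. Sycp1 was 25.5-fold higher, at 10.1 to 40.1 CPM (median 25.1) beside 0 to 2.53 CPM (median 0.404) in wild type (log2 fold change 4.47 ± 0.45, edgeR adjusted p = 1.12e-06). Tuba3a gave 4.03 to 104 CPM (median 23.7) against 0 to 6.06 CPM (median 1.68) in wild type, 14.1-fold higher on the means (log2 fold change 3.62 ± 0.71, edgeR adjusted p = 0.000739). Tuba3a overlapped between groups. Rpl10l had 22.2 to 113 CPM (median 42.9) in the knockout and 1.45 to 19.5 CPM (median 6.32) in wild type, a 6.88-fold difference of the means (log2 fold change 2.54 ± 0.45, edgeR adjusted p = 0.000344). Slc25a31 measured 26.6 to 58.1 CPM (median 30.6), compared with 2.77 to 17.5 CPM (median 6.53) in the controls, and was 4.13-fold higher (log2 fold change 1.88 ± 0.34, edgeR adjusted p = 0.000275). Tex19.1 was 3.91-fold higher, at 1.41 to 49.5 CPM (median 5.14) beside 1.09 to 6.86 CPM (median 3.77) in wild type (log2 fold change 1.85 ± 0.61, edgeR adjusted p = 0.0229). Ddx4 gave 17.1 to 51.5 CPM (median 26.5) against 3.79 to 16.8 CPM (median 8.31) in wild type, 3.39-fold higher on the means (log2 fold change 1.61 ± 0.26, edgeR adjusted p = 0.000118). Of these 6, Sycp1, Rpl10l, Slc25a31 and Ddx4 had no overlap between groups. Syce1 (2.88-fold), Zcwpw1 (1.96-fold) and Dmc1 (1.73-fold) were higher with overlapping groups. The 4 lower members were Syce2, at 68.7% of wild type, Hormad2 at 63.1%, Rpl39l at 57.3% and Sycp3 at 50.2%, all with overlap. All 4 were higher in the wild-type epiblast than in the wild-type ExE. Without Eed embryo 10, Tex19.1 was 2.60-fold higher. ExE markers summed to 32.9 to 119 CPM. Of the 2 tested, Ascl2 (log2 1.08, edgeR adjusted p = 0.0259) was higher and Eomes (log2 -1.58, edgeR adjusted p = 0.00391) lower, and their part was not tested.

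The ExE without Eed showed 10 of 18 tested members higher and none lower, beside 22.7% higher and 18.1% lower over 10058 genes. At an unadjusted p under 0.05 edgeR had 1 lower, and DESeq2 called 0 lower. The member median was 1.11. Sycp1 had 73.9 to 165 CPM (median 117) in the knockout and 8.19 to 27.9 CPM (median 13.4) in wild type, an 8.16-fold difference of the means (log2 fold change 2.84 ± 0.23, edgeR adjusted p = 1.05e-08). Brdt measured 2.55 to 9.81 CPM (median 5.34), compared with 0 to 1.86 CPM (median 0.329) in the controls, and was 8.48-fold higher (log2 fold change 2.88 ± 0.48, edgeR adjusted p = 6.46e-05). Sohlh2 was 7.49-fold higher, at 13.6 to 250.03 CPM (median 91.9) beside 3.00 to 26.1 CPM (median 10.4) in wild type (log2 fold change 2.80 ± 0.52, edgeR adjusted p = 0.000344). The lowest Eed library of Sohlh2 lay within the wild-type range. Slc25a31 gave 21.9 to 50.0 CPM (median 31.0) against 2.62 to 7.45 CPM (median 5.74) in wild type, 5.58-fold higher on the means (log2 fold change 2.33 ± 0.24, edgeR adjusted p = 2.74e-07). Tuba3b had 2.74 to 21.6 CPM (median 8.61) in the knockout and 1.00 to 3.35 CPM (median 1.43) in wild type, a 6.09-fold difference of the means (log2 fold change 2.41 ± 0.40, edgeR adjusted p = 7.01e-05). Dmc1 measured 10.9 to 22.3 CPM (median 14.7), compared with 2.63 to 7.00 CPM (median 3.60) in the controls, and was 3.72-fold higher (log2 fold change 1.74 ± 0.24, edgeR adjusted p = 8.79e-06). Among the 10, Sohlh2, Tuba3a, Tuba3b, Ddx4 and Tex19.1 overlapped between groups. Rpl10l was 2.97-fold, Ddx4 2.57-fold, Tuba3a 2.43-fold and Tex19.1 1.92-fold higher. Visceral endoderm markers summed to 43.3 to 95.4 CPM here against 12.5 to 28.6 in wild type, and ExE markers to 535 to 829 against 640.3 to 1302. Their part in the members' values was not tested.

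Whether a knockout changed a member differently in the 2 tissues was tested directly, as the ExE log2 fold change minus the epiblast one. This test did not pair the tissues of an embryo, and the replicate block, an alternative, did so by embryo label. The differences numbered 4 of 25 tested members for Dnmt1 (0.282% of all genes differed), 2 of 22 for G9a-Glp (6.59%), 8 of 24 for Rnf2 (6.71%) and 5 of 23 for Eed (15.8%). For Dnmt1 all 4 were toward the epiblast: Sycp1 (log2 -5.73 ± 0.71, edgeR adjusted p = 0.000174), Dazl (-5.39), Tuba3b (-3.43) and Tex19.1 (-2.60). For Rnf2, Tex101 had the largest (log2 -5.38 ± 0.97, edgeR adjusted p = 0.000779), followed toward the epiblast by Sycp1 (-3.35), Rpl10l (-3.12), Tex19.1 (-2.29), Syce1 (-2.25), Tuba3a (-2.05) and Stk31 (-1.71). Of these, Sycp1, Rpl10l, Tex19.1, Syce1, Tuba3a and Stk31 had a higher wild-type level in ExE than in the epiblast. Tex101 was not tested between the wild-type tissues by edgeR, and DESeq2 called it higher in ExE. It had 1.67 to 11.9 CPM in wild-type ExE against 2 reads over the wild-type BDF1xCAST epiblasts. Of the Dnmt1 members, Sycp1 and Tex19.1 were higher in wild-type ExE by edgeR, and Dazl and Tuba3b by DESeq2 only. Hormad2 went the other way in 3 knockouts, higher toward ExE in G9a-Glp (log2 2.95 ± 0.54, edgeR adjusted p = 0.00117), Rnf2 (2.51) and Eed (1.81). Its level stayed below the epiblast level in each of those groups. Sycp3 also differed toward ExE for G9a-Glp (2.35), and with the replicate block this was 1.41 with edgeR adjusted p = 0.125, so that 1 member remained past the threshold. For Eed, Brdt (3.78) and Dmc1 (1.16) differed toward ExE, and Tuba3a (-2.47) and Sycp1 (-1.63) toward the epiblast. Under the replicate block, Dazl for Dnmt1 and Tex19.1 and Stk31 for Rnf2 did not pass (edgeR adjusted p = 0.0786, 0.0938 and 0.110). With thinned libraries, Stk31 and Tuba3a for Rnf2 and Dmc1 for Eed did not pass (edgeR adjusted p = 0.0756, 0.0691 and 0.0765). Without the filter on low counts, Tuba3a for Rnf2 and Hormad2 for Eed did not pass (edgeR adjusted p = 0.0799 and 0.0610).

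The knockouts were then compared with each other, tissue by tissue. In the epiblast, 9 of 22 tested members differed between Dnmt1 and G9a-Glp (3.12% of all genes did), and 8 of them were higher without Dnmt1. Dazl (log2 5.04 ± 0.76, edgeR adjusted p = 0.00157) led, followed by Tuba3a, Sycp1, Hormad1 and Slc25a31 at log2 4.46, 4.04, 3.90 and 3.05. Asz1 was the 1 that was higher without G9a and GLP (log2 -2.35 ± 0.35, edgeR adjusted p = 0.00141). Between Dnmt1 and Rnf2, 9 of 25 differed (8.52%). Tuba3b (2.70), Rpl39l (2.33) and Tuba3a (1.78) were higher without Dnmt1. Tdrd1 (-3.49), Tex101 (-3.29), Ddx4 (-2.55), Syce1 (-2.45), Piwil2 (-2.32) and Slc25a31 (-1.74) were higher without Rnf2. Between Dnmt1 and Eed, 9 of 21 differed (6.06%), the 9 higher without Dnmt1 and led by Rpl39l (log2 3.44 ± 0.29, edgeR adjusted p = 2.3e-06). Between Rnf2 and Eed, both Polycomb genes, 12 of 23 differed (3.96%), all higher without Rnf2 and led by Tex101 (log2 4.78 ± 0.52, edgeR adjusted p = 2.98e-05) and Slc25a31 (log2 3.05 ± 0.21, edgeR adjusted p = 7.06e-09).

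In the ExE, 6 of 19 members differed between Dnmt1 and G9a-Glp (7.78% of all genes). Rpl39l was higher without Dnmt1 (log2 4.08 ± 0.53, edgeR adjusted p = 0.000241). Asz1 (log2 -5.09 ± 0.25, edgeR adjusted p = 3.01e-09), Rpl10l (-2.89), Sohlh2 (-2.62), Tdrd1 (-2.38) and Syce1 (-2.06) were higher without G9a and GLP. Between Dnmt1 and Rnf2, 14 of 25 differed (19.7%), with Rpl39l (4.31), Dpep3 (2.77), which encodes a testis dipeptidase, and Rpl10l (1.91) higher without Dnmt1. The other 11 were higher without Rnf2, led by Ddx4 (log2 -4.26 ± 0.50, edgeR adjusted p = 0.000355). Between Dnmt1 and Eed, 11 of 23 differed (19.1%). Rpl39l (3.35), Tuba3a (1.65) and Tuba3b (1.19) were higher without Dnmt1, and 8 were higher without Eed, Sycp1 among them (-2.84). Between Rnf2 and Eed, 10 of 22 differed (14.4%), of which 9 were higher without Rnf2, led by Piwil2 (log2 2.32 ± 0.19, edgeR adjusted p = 1.34e-07), and Rpl10l (-1.61) was higher without Eed. Rpl39l was thus on the Dnmt1 side in each of the 3 ExE comparisons that included Dnmt1. Depth differs between the Rnf2 libraries and the others.

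Across the 8 comparisons with wild type, 9 members were higher in 5 or more. Over all genes, 6.93% to 22.7% were higher in a single comparison, and the share higher in 5 or more was not counted. Tex19.1 was higher in 8, Tuba3a and Rpl10l in 7, Sohlh2 and Ddx4 in 6, and Tuba3b, Sycp1, Slc25a31 and Syce1 in 5. In 5 of its 8, Tex19.1 missed the threshold under 1 or more alternatives (edgeR adjusted p = 0.0507 to 0.300): the G9a-Glp and Eed epiblasts and the Dnmt1, Rnf2 and Eed ExE. The 3 members Mcmdc2, Sycp3 and Syce2 were tested and never higher. The never-tested members were D1Pas1, Dpep3, Meiob, Mov10l1, Smc1b, Spo11, Stag3, Stra8, Tdrd9 and Tex14, with 10 to 181 reads over all 72 libraries. Spo11, which makes the breaks that start meiotic recombination, had a mean of at most 1.37 CPM in any group. Stra8, the retinoic acid target that starts meiosis, had at most 0.917 CPM, reached in the Dnmt1 epiblast. The filter on low counts kept these genes out of the edgeR test. DESeq2, which did its own filtering, called 2 of the 10 past the threshold, Spo11 lower in the G9a-Glp epiblast and Dpep3 higher in the Dnmt1 ExE. There Dpep3 had 7.13, 3.51 and 5.59 CPM against 0 to 0.745 CPM (median 0.357) in wild type, with no overlap. The summed level of all members went from 485 ± 75.9 CPM (SD, n = 7) in the wild-type epiblast to 1201 ± 99.6 in Dnmt1, 823 ± 215 in G9a-Glp and 1359 ± 272 in Rnf2, and was 553 ± 139 in Eed. In ExE it was 608 ± 109 in wild type, 1413 ± 75.1 in Dnmt1, 2577 ± 320.2 in G9a-Glp, 1546 ± 162 in Rnf2 and 1277 ± 175 in Eed. Without the 4 most read members (Tex19.1, Rpl10l, Syce2 and Sohlh2), the G9a-Glp ExE stood at 499 and the Rnf2 ExE at 605, so the order of the knockouts changed.

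The cross allowed the reads to be divided between the BDF1 and CAST alleles at known differences. BDF1 is the mother in BDF1xCAST. Over all autosomal genes the BDF1 share was 56.07% to 58.53% in each library, and the members are read beside that range. Pooled over the raised members, the BDF1 share per library was 51.9 ± 3.77% (SD, n = 3) in the Dnmt1 epiblast, 49.4 ± 5.70% (n = 6) in G9a-Glp, 56.0 ± 3.02% (n = 6) in Rnf2 and 53.0 ± 3.32% (n = 9) in Eed. In ExE it was 60.5 ± 2.71% (n = 3), 63.2 ± 3.01% (n = 8), 58.2 ± 1.03% (n = 5) and 55.5 ± 2.86% (n = 10). Both alleles were therefore read in every knockout group. The pooled genes differ between groups, and the most read ones weigh most. In G9a-Glp ExE replicate 1, Rpl10l, Tex19.1 and Sohlh2 gave 2875, 1892 and 1693 of 7490 reads. In G9a-Glp epiblast replicate 1, Rpl10l gave 1758 of 2218. No wild-type share was pooled over the same genes, so a difference between groups can lie in which genes were pooled. Shares below have exact (Clopper-Pearson) intervals, which cover counting error only.

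**Figure D3:**
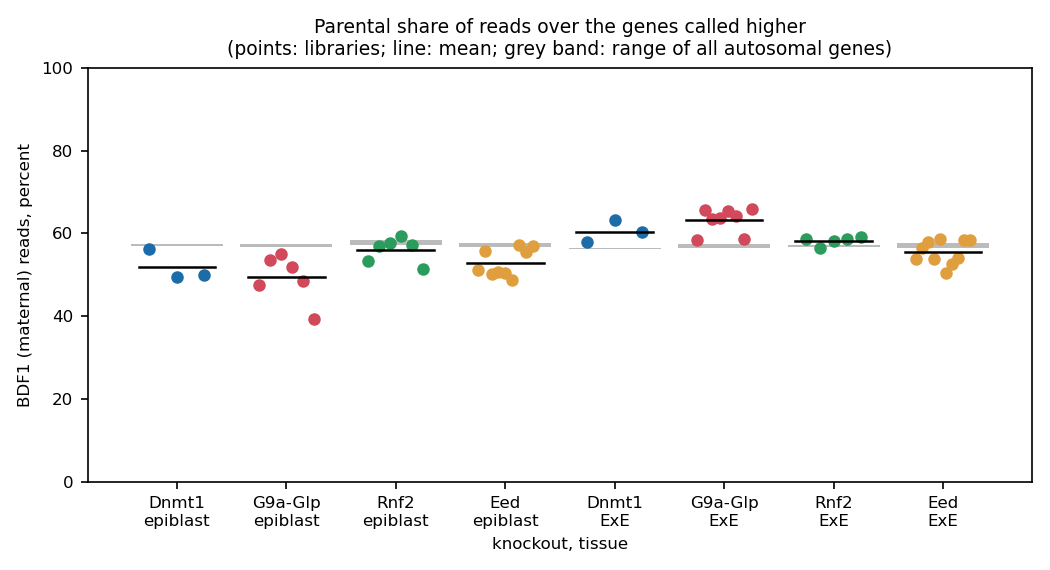
BDF1 share (percent) of the reads of raised members in each knockout library, pooled over members with 10 or more reads. The grey band of each group is the range, over the libraries of that group, of the share over all autosomal genes. The G9a-Glp ExE libraries average 63.2%, above their band, and the G9a-Glp epiblasts 49.4%, below theirs. The pooled genes differ between groups, and the most read ones weigh most.

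Single members departed from that range. Asz1 was read mostly from the mother in wild-type ExE: BDF1 gave 83.7% of 43 reads (exact 95% interval 69.3 to 93.2%) where BDF1 was the mother and 20% of 50 reads (exact 95% interval 10.03 to 33.7%) where it was the father. Those values rest on 3 and 2 libraries with 10 or more reads. In the Rnf2 ExE the BDF1 share of Asz1 was 86.0% of 342 reads (exact 95% interval 81.8 to 89.5%). In the G9a-Glp ExE, where Asz1 was 81.3-fold higher, it was 57.8% of 4888 reads (exact 95% interval 56.4 to 59.2%), and each of the 8 libraries lay between 46.5 and 64.1%. So the many reads without G9a and GLP came from both alleles, while the few in wild type came mostly from the maternal one. Sycp1 was read mostly from CAST in either cross, with a BDF1 share of 20.3% of 291 reads (exact 95% interval 15.8 to 25.4%) in BDF1xCAST ExE and 16.6% of 151 reads (exact 95% interval 11.0 to 23.5%) in CASTxBDF1 ExE. The BDF1 share of Sycp1 stayed low where it was raised, at 28.1% of 3798 reads (exact 95% interval 26.7 to 29.6%) in the Rnf2 epiblast and 14.0% of 535 reads (exact 95% interval 11.2 to 17.3%) in the Eed epiblast, and was 43.8% of 290 reads (exact 95% interval 38.0 to 49.7%) in the Dnmt1 epiblast. Hormad2 in the epiblast was likewise read mostly from CAST, with BDF1 at 13.6% of 1154 reads (exact 95% interval 11.7 to 15.7%) and 11.7% of 412 reads (exact 95% interval 8.72 to 15.1%) in the reciprocal cross. In the G9a-Glp ExE, where Hormad2 was higher, BDF1 gave 48.2% of 421 reads (exact 95% interval 43.4 to 53.1%). For a skew toward 1 strain in both crosses, a strain difference in expression and unequal mapping of the strains' reads cannot be told apart here. Sohlh2 in wild-type ExE had a BDF1 share of 44.8% of 290 reads (exact 95% interval 39.0 to 50.8%) in BDF1xCAST and 91.0% of 663 reads (exact 95% interval 88.5 to 93.0%) in CASTxBDF1. The 5 Rnf2 ExE libraries ranged from 3.13 to 57.0% for Sohlh2. Tuba3a was read mostly from BDF1 in the G9a-Glp ExE (82.4% of 1111 reads (exact 95% interval 80.1 to 84.6%)) and in wild-type ExE (79.8% of 208 reads (exact 95% interval 73.7 to 85.0%)). Tex19.1 in ExE lay between 62.9 and 66.7% in every group.

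A list of 49 other germline genes, of which 46 had a row, was read beside the members. In the epiblast, 5 of 17 tested were higher without Dnmt1, 5 of 14 without G9a and GLP, 12 of 17 without Rnf2, and 4 of 15 without Eed, where 3 were lower. In ExE the counts of higher and lower were 1 and 2 of 14 in Dnmt1, 3 and 2 of 13 in G9a-Glp, and 6 and 3 of 15 in Eed, and 5 of 14 were higher in Rnf2. Fkbp6, a cochaperone of the PIWI-interacting RNA pathway, was higher in the Dnmt1 (3.76), Rnf2 (4.14) and Eed (1.27) epiblasts on the log2 scale. Rec114, which takes part in making meiotic breaks, was higher in both G9a-Glp tissues (log2 2.87, edgeR adjusted p = 4.94e-06 in epiblast, log2 3.95, edgeR adjusted p = 1.04e-09 in ExE). Tdrkh, a tudor protein of the same pathway as Fkbp6, was higher in the Rnf2 (2.96) and Eed (2.35) ExE. Over all genes, the shares higher and lower were 6.93% and 7.03% in the Dnmt1 epiblast, 19.5% and 14.9% in G9a-Glp, 18.2% and 12.7% in Rnf2 and 18.0% and 18.8% in Eed. Of 30 repressors of germline genes, 3 of 29 tested were higher and 1 lower in the Dnmt1 epiblast, 4 and 5 of 26 in G9a-Glp, 4 and 7 of 27 in Rnf2, and 4 and 10 of 27 in Eed. The list includes the targeted genes themselves, so a count of lower repressors can hold the gene that was knocked out. Max, the partner of MGA, was higher in all 4 epiblasts (log2 1.39, 2.10, 1.82 and 1.68). E2f6 was lower in the G9a-Glp epiblast (log2 -1.07, edgeR adjusted p = 0.00458). In ExE, 1 and 1 of 28, 2 and 5 of 28, 1 and 6 of 28, and 1 and 12 of 28 repressors were higher and lower in Dnmt1, G9a-Glp, Rnf2 and Eed. The shares over all genes in ExE were 8.55% and 9.98%, 8.71% and 6.35%, 12.2% and 9.98%, and 22.7% and 18.1%. Outside the Dnmt1 epiblast, the share of repressors that were higher was below that of all genes. The share that were lower was above that of all genes in both tissues of G9a-Glp, Rnf2 and Eed. In both Dnmt1 tissues it was below. Prdm1, which starts primordial germ cell specification and also acts in other lineages, was higher in both G9a-Glp tissues (log2 4.02, edgeR adjusted p = 2.36e-05 in epiblast, log2 3.65, edgeR adjusted p = 7.43e-05 in ExE). Dppa3 was higher in both Eed tissues (3.14 and 4.05). Decidua markers summed to at most 46.8 CPM in any library.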

How the data were processed

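RNA was sequenced from epiblast and extraembryonic ectoderm of single embryos (72 libraries). Reads were aligned to mm10 with STAR 2.5.0 and counted with HTSeq, per the submitters' processing notes, and the authors deposited read counts per gene with the ratio of alleles and a signed score of allele bias, per the file headers. Strand is not given in the sources used here. The values are counts over both alleles. The deposited ratios of the members fitted whole reads out of these counts, so the counts were taken as reads assigned to an allele. A low count can go with few strain differences in a gene as well as with a low level, and which was not tested. Levels (CPM) were computed by scaling the counts to the library total. Differences were tested with edgeR 4.0.16 (TMM, quasi-likelihood, genes with low counts removed by filterByExpr, Benjamini-Hochberg adjustment over all genes tested) in R 4.3.3. Alternatives were DESeq2 1.42.0, other scalings, no filter, libraries thinned to equal depth, sex, all groups in 1 fit, a replicate block and libraries left out. Folds of the means without each library in turn were added after the data were seen. The procedure was tested on simulated data.

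Allele reads were recovered from the deposited ratio and score: of 1274 values with at least 10 reads, 902 had 1 whole number that fitted the ratio, and the other 372 were settled by the score within 0.002. The members and the other gene lists were chosen with earlier results of these data known. In each comparison, values are given for up to 6 members past the threshold with the largest log2 fold change, and from each other list at most 3 genes are named. By the embryo labels, epiblast and ExE with the same number come from the same embryo, but for Eed embryos 8 to 10 the titles of the tissues carry different numbers. In wild type, the deviations of such pairs from their group means correlated at 0.0193 to 0.468 (median 0.245). Numbers shared between a knockout and wild type belong to different embryos.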

Additional observations from a re-analysis of the deposited data

Results flagged for a closer look

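In 8 of 72 sets of libraries examined (11.1%), 1 library stood apart from the rest of its group. The rule flags about 1 in 20 sets by chance if values follow a normal distribution, which CPM need not. In all 8 the library was the highest of its group, and the Dnmt1 groups, with 3 libraries, were not examined. Piwil2 in the Rnf2 epiblast reached 21.6 CPM in embryo 8, with the next library at 12.0 CPM. Sohlh2 in the same tissue reached 101 CPM in embryo 6, with the next at 42.6 CPM. In the Eed epiblast, Sycp3 reached 96.3 CPM in embryo 8 (next 56.3 CPM) and Tuba3a 104 CPM in embryo 10 (next 44.6 CPM). Asz1 in the G9a-Glp ExE reached 308 CPM in embryo 7 (next 239.9 CPM). Tuba3b in the Rnf2 ExE reached 42.2 CPM in embryo 5, with the next at 12.2 CPM. In the Eed ExE, Rpl10l reached 219 CPM in embryo 4 (next 124 CPM) and Slc25a31 50.0 CPM in embryo 8 (next 36.8 CPM). By the embryo labels, Eed embryo 8 was high for Sycp3 in the epiblast and for Slc25a31 in the ExE, though the titles of these libraries carry different numbers.

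The change differed between tissues by the edgeR test of the difference itself for 19 pairs of a member and a knockout, given here as the ExE log2 fold change minus the epiblast one. For Dnmt1 these were Dazl (-5.39), Sycp1 (-5.73), Tex19.1 (-2.60) and Tuba3b (-3.43). For G9a-Glp they were Sycp3 (2.35) and Hormad2 (2.95). For Rnf2 they were Sycp1 (-3.35), Syce1 (-2.25), Tex101 (-5.38), Tex19.1 (-2.29), Tuba3a (-2.05), Rpl10l (-3.12), Stk31 (-1.71) and Hormad2 (2.51). For Eed they were Sycp1 (-1.63), Tuba3a (-2.47), Hormad2 (1.81), Dmc1 (1.16) and Brdt (3.78). Under some alternatives Dazl for Dnmt1, Sycp3 for G9a-Glp, Tex19.1, Tuba3a and Stk31 for Rnf2, and Hormad2 and Dmc1 for Eed did not pass.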

How the results depend on the processing

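Of 137 recounts of members under the alternatives, 130 were within 1.5 times the value given. With the replicate block, 5 instead of 9 members were higher in the Eed epiblast, 4 instead of 9 differed between Dnmt1 and G9a-Glp in the epiblast, and 1 instead of 2 differed between tissues for G9a-Glp. DESeq2 gave 9 instead of 4 differences between tissues for Dnmt1 and 4 instead of 2 for G9a-Glp. With libraries thinned to equal depth, Eed had 3 instead of 5, and without the filter on low counts 22 instead of 13 members differed between the wild-type tissues. The cause was not tested. Leaving out libraries gave 9 to 15 members higher in the Dnmt1 epiblast, 5 to 7 in its ExE, 7 to 8 and 10 to 11 in the G9a-Glp tissues, 17 in the Rnf2 epiblast, 10 to 15 in its ExE, and 9 and 12 in the Eed tissues, where, as in the Rnf2 epiblast, the library left out was wild-type embryo 8. Of 1403 values of single members under alternatives, 1339 kept direction and side of the threshold and 64 lost the threshold, 29 of them under the block; the sign changed in 0. Syce2 in the Dnmt1 epiblast lost it in 7. Same-numbered knockout and wild-type embryos did not deviate together: the median correlation over their pairs lay between -0.133 and 0.0671. The block could not be fitted for Dnmt1 against Rnf2 in the ExE, which share 1 number. Scaling by the library total alone moved the median of all genes by 0.21 (Dnmt1 epiblast), 0.19 (Eed epiblast), 0.25 (Dnmt1 ExE) and 0.17 (Eed ExE) on the log2 scale, and the split of all higher and lower genes from 710 and 720 to 1229 and 481, from 1765 and 1848 to 2492 and 965, from 834 and 973 to 1473 and 569, and from 2280 and 1820 to 2787 and 1008. The 10 members never tested against wild type had too few reads for the filter, and the reason was not tested.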

Other observations

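The 4 CASTxBDF1 embryos enter no comparison with the knockouts. Their summed level over all members was 552 ± 68.5 CPM (SD, n = 4) in the epiblast and 772 ± 78.9 CPM in ExE. Sohlh2 varied in their ExE, at 17.0, 132, 28.0 and 3.84 CPM. Syce1 in ExE had a BDF1 share of 39.3% of 135 reads (exact 95% interval 31.0 to 48.0%) in CASTxBDF1 and 69.9% of 362 reads (exact 95% interval 64.9 to 74.6%) in BDF1xCAST, with the larger share from the mother in both crosses. In the epiblast its BDF1 share was 75.0% of 48 reads (exact 95% interval 60.4 to 86.4%) and 77.3% of 88 reads (exact 95% interval 67.1 to 85.5%) in these crosses.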
